A study of Mus musculus with 10 samples.

Results

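In the mouse retina, 10 genes for transcription factors of amacrine and horizontal cells were followed under vigabatrin: Tfap2a, Tfap2b, Pax6, Prox1, Onecut1, Onecut2, Lhx1, Isl1, Barhl2 and Lhx9. They were taken by gene name from a table of read counts that holds 35275 genes, of which 17435 had enough counts to be tested, all 10 of these genes among them. Total RNA of whole retinas from C57BL/6 mice, 10 to 12 weeks of age, gave 10 libraries. In 5 of them the treatment label is vehicle, while the titles say untreated, and nothing is said of how the vehicle was given. The other 5 came from mice that received 140 mg/kg/day of vigabatrin (VGB) for 11 days from a subcutaneous osmotic pump. Vigabatrin blocks the enzyme that breaks down GABA, an inhibitory transmitter of horizontal cells and of many amacrine cells. Each library is given as its group followed by its title's number.

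Amacrine and horizontal cells are the inhibitory interneurons of the retina: horizontal cells act on photoreceptor terminals, and amacrine cells on bipolar and ganglion cells. Both arise from progenitors in which a cascade of transcription factors commits cells to these fates, and several of the factors stay on in the adult and serve as markers of cell type. Tfap2a and Tfap2b encode AP-2 factors of both cell types, Onecut1, Onecut2, Lhx1 and Prox1 are tied to the horizontal cell, and Pax6, Isl1, Barhl2 and Lhx9 to amacrine cells. The markers are shared: Prox1 is also made in AII amacrine and some bipolar cells, Isl1 in ON bipolar and ganglion cells, and Pax6 and Barhl2 in ganglion cells. Outside the retina, Pax6 and Prox1 are key factors of the lens and Tfap2a is made in lens and surface epithelium.

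The sequences just upstream of 3 of these genes are shown, for the AP-2 pair, of which Tfap2b had the smallest p of the 10 genes, and for Prox1, whose level was higher in the libraries rich in lens. Each run is the 250 bases before a RefSeq transcription start (GRCm38.p6, the assembly of mm10), 5′ to 3′ on the strand of the gene, with matches to 5 motifs in capitals. The motifs were GCCNNNGGC (AP-2), TAATTA (homeodomain core), GGGCGG (GC box), CCAAT and TATAAA, searched on both strands. For Tfap2b the window was chr1:19211804-19212053 on the plus strand and lies inside the deposited gene. For Tfap2a it was chr13:40734921-40735170 and for Prox1 chr1:190170828-190171077, both on the minus strand and both taken from the more upstream of 2 RefSeq starts. The bases just after this Prox1 start were in no transcript of Prox1 in the GENCODE annotation. Those after the Tfap2a and Tfap2b starts were in transcripts of their genes.
Tfap2b: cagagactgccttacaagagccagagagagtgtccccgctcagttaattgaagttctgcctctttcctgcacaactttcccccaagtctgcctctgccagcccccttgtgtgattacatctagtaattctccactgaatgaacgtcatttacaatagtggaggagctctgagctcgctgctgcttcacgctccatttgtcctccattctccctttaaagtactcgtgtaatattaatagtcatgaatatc
Tfap2a: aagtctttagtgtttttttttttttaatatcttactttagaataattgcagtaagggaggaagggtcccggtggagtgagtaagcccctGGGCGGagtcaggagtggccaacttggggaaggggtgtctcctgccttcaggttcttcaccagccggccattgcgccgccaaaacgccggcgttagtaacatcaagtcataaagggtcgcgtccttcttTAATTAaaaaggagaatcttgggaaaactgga
Prox1: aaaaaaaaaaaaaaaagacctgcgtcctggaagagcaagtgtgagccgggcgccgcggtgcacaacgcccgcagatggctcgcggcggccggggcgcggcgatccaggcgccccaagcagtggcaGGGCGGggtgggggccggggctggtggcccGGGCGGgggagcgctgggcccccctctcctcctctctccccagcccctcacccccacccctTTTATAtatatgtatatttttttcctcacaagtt

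The Tfap2b window held 0 of the 5 motifs. The Tfap2a window held 1 TAATTA and 1 GC box, and the Prox1 window 2 GC boxes and 1 TATAAA. That TATAAA lies on the strand opposite to the gene, so the run shown reads TTTATA. An exon of the opposite-strand gene Gm26688 lies in the Tfap2a window. Over all 32851 RefSeq windows of that length, 4.84% held TAATTA, 32.7% a GC box, 12.4% TATAAA, 33.8% CCAAT and 13.7% the AP-2 motif. GC content was 46.4% for Tfap2b, 47.6% for Tfap2a and 64.8% for Prox1. A match is a run of letters and was not tested as a binding site.

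The libraries held 36056135 to 54052502 counts, and the retina was recognised by its rod markers, which summed to between 66420 and 74080 CPM (counts scaled to the library's size) in each of them. Lens content set some libraries apart. Lens markers took 1.31% to 2.01% of all counts in vehicle 835 and 1582 and vigabatrin 2344 and 2429, called lens-rich here, and at most 0.126% in the other 6. The 23 lens markers summed to 48.3 to 19840 CPM in vehicle and 14.0 to 20510 CPM after vigabatrin, and the gene model used for Lim2 was at 0 in all 10. All 20 that were tested had higher means after vigabatrin, none called (edgeR adjusted p of 0.862 or more). The 14 pigment epithelium and choroid markers, summed to 50.4 to 1734 CPM in vehicle and 35.3 to 791 CPM after vigabatrin. Of these, 12 had lower means after vigabatrin, 4 of them at an unadjusted p under 0.05 (median log2 fold change of the list -1.04). Their sum was highest in the lens-rich libraries vehicle 835, vigabatrin 2344 and vehicle 1582 (1734, 791 and 593 CPM). The lens-rich vigabatrin 2429 had 171 CPM, below the 236 CPM of vehicle 832. The 6 cornea markers summed to at most 32.0 CPM, and all 4 that were tested had lower means, 3 of them at an unadjusted p under 0.05 (median -1.90). None of either list was called (edgeR adjusted p of 0.528 or more), and their part in the results on the 10 factors was not tested beyond the alternative with pigment epithelium level as a term. Nothing in the labels says that each library is a separate animal, so the tests measure the spread between libraries.

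Levels of the 10 factors differed widely. Per kilobase of the deposited gene length (RPKM), vehicle retinas held Pax6 at 87.7 ± 10.3, Tfap2b at 39.3 ± 2.34, Isl1 at 37.5 ± 2.30 and Prox1 at 26.0 ± 2.82 (SD, n = 5). Below them came Tfap2a at 14.0 ± 0.617 RPKM and Barhl2 at 8.35 ± 0.373 RPKM. The lowest were Lhx1 at 2.63 ± 0.165, Lhx9 at 2.10 ± 0.297, Onecut1 at 0.921 ± 0.126 and Onecut2 at 0.433 ± 0.0384 RPKM. Pax6 was thus 203 times the level of Onecut2 per length, although the long deposited model of Onecut2 (13391 bases) enters that ratio. Among neighbours in this order, only Tfap2b and Isl1 overlapped between vehicle libraries (36.5 to 41.6 and 35.6 to 41.4 RPKM). After vigabatrin these 2 no longer overlapped (44.0 to 47.0 against 37.5 to 42.6 RPKM), while Lhx1 and Lhx9 did (2.36 to 2.99 and 2.33 to 2.85 RPKM). Such overlaps between genes depend on the deposited lengths, and their change between groups was not tested. In CPM, without division by length, Lhx1 and Lhx9 already overlapped in vehicle (9.44 to 10.9 and 8.61 to 11.9 CPM). Among the tested genes Pax6 stood at the 97.1th percentile of RPKM, Tfap2b at the 92.0th and Onecut2 at the 12.7th.

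None of the 10 factors passed the comparison of vigabatrin with vehicle over all genes (edgeR quasi-likelihood test, Benjamini-Hochberg adjusted p under 0.05). The same test called 1 of 17435 genes, or 0.00574%. At an unadjusted p under 0.05 the count was 3 of 10, namely Tfap2b, Lhx9 and Tfap2a, all with higher means after vigabatrin. Of all tested genes, 3.68% were higher and 7.36% differed in either direction at that level. The 10 factors and all lists were chosen with earlier results of these data known. No such count, here or below, is therefore an independent test of its list. DESeq2's Wald test called 1 of the 10, Tfap2b, among 87 genes in all, and limma-voom called 0 of the 10 and 3 genes in all. In all, 6 had higher and 4 lower means, and their median log2 fold change was 0.07, against 0.00 over all tested genes. In bulk tissue a change in the number of cells and a change in RNA per cell cannot be told apart.

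**Figure D1:**
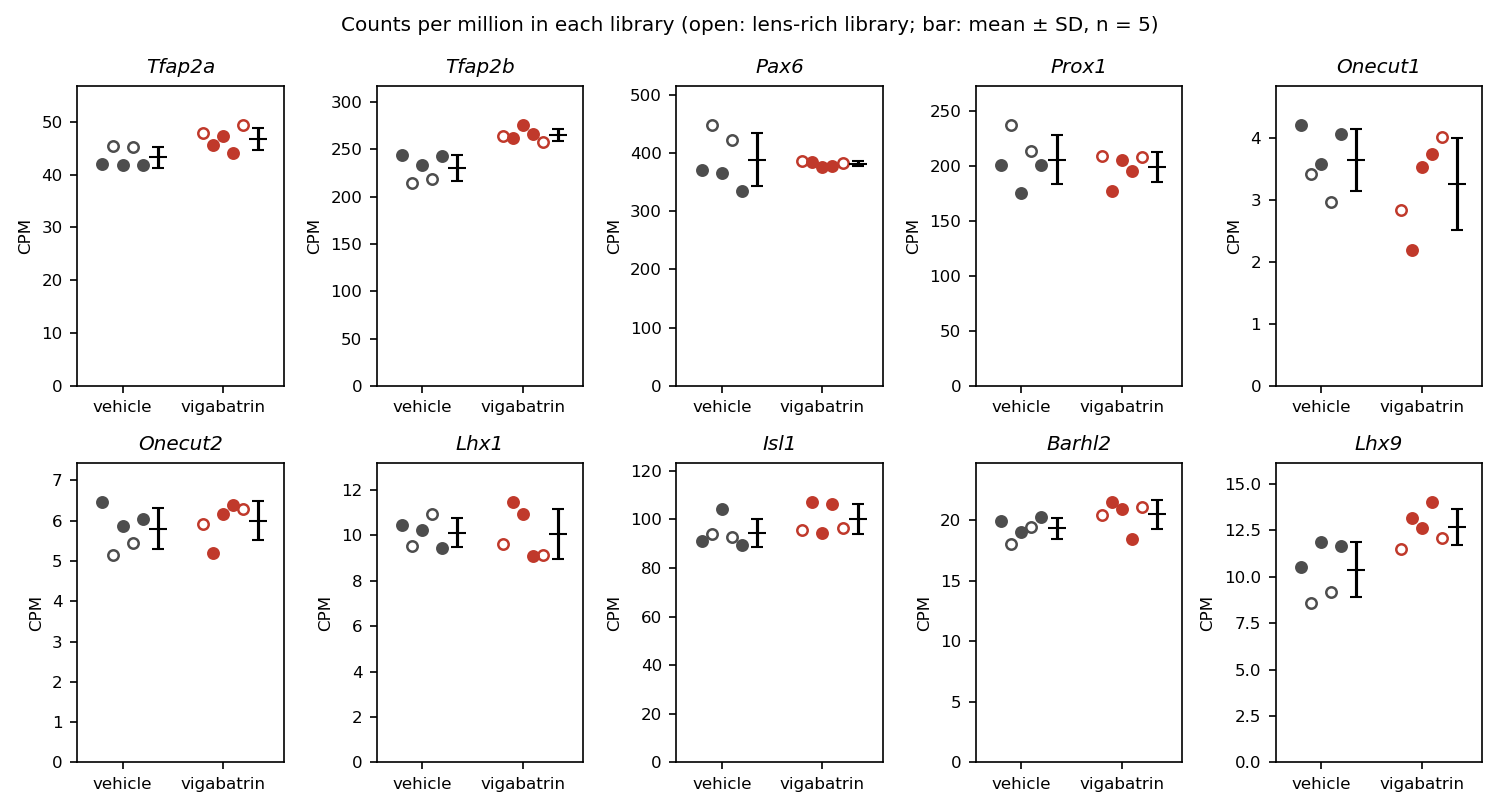
CPM of the 10 genes in each library, with vehicle in grey, vigabatrin in red, lens-rich libraries as open circles, and the mean and SD of 5 libraries as bars. Tfap2b is the gene whose groups do not overlap, and the Pax6 values span 335 to 448 CPM in vehicle but 376 to 387 CPM after vigabatrin.

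Tfap2b, one of the AP-2 factors that direct horizontal and amacrine cell differentiation, showed the clearest separation. It measured 244, 214, 233, 219 and 243 CPM in vehicle 832, 835, 1580, 1582 and 2345. After vigabatrin it measured 264, 262, 276, 267 and 258 CPM in 2344, 2347, 2349, 2428 and 2429. The lowest vigabatrin value exceeded the highest vehicle value, a separation that 0.849% of the tested genes showed in that direction, and the lowest vehicle values were those of the lens-rich libraries 835 and 1582. The means were 231 ± 13.7 and 265 ± 6.72 CPM (SD, n = 5 each), a log2 fold change of 0.20 (SE 0.04, 95% interval 0.10 to 0.30, edgeR adjusted p = 0.339), or 14.9% higher. The adjusted p was 0.00655 with DESeq2 and 0.148 with limma-voom. Without the 4 lens-rich libraries the log2 fold change was 0.159. A term for title numbers above 2000 lowered it to 0.123; all vigabatrin libraries have such numbers but among vehicle only 2345 does, so number and treatment are almost confounded. Tfap2b (mm10 chr1:19208914-19238576, plus strand) had counts of 8820 to 14328 per library, which give a counting error of 0.979% in vehicle.

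Tfap2a (chr13:40715675-40733823, minus strand), its paralog, had a smaller difference in the same direction. Vehicle libraries measured 42.0, 45.4, 41.8, 45.2 and 41.8 CPM in the order 832, 835, 1580, 1582 and 2345, and vigabatrin libraries 47.9, 45.6, 47.2, 44.0 and 49.4 CPM in the order 2344, 2347, 2349, 2428 and 2429. In each group the 2 lens-rich libraries were the highest, and the groups overlapped only through the lens-rich vehicle libraries. The log2 fold change was 0.11 (SE 0.04, 95% interval 0.02 to 0.21, edgeR adjusted p = 0.611), and it was 0.124 without the lens-rich libraries. The share of lens in each library moves with Tfap2a within both groups, and its part in the difference between groups was not tested beyond these values. Tfap2c and Tfap2d, the other AP-2 genes listed, had log2 fold changes of 0.04 and 0.23 at 14.9 and 2.81 CPM in vehicle, and neither was called.

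Lhx9 (chr1:138825186-138848576, minus strand), a LIM-homeodomain factor of amacrine cells, had the highest fold change of the 10. Its vehicle libraries measured 10.5, 8.61, 11.9, 9.18 and 11.7 CPM in the order given for Tfap2a, and its vigabatrin libraries 11.5, 13.2, 12.6, 14.05 and 12.1 CPM. The lens-rich libraries were the 2 lowest in each group, the reverse of Tfap2a, and the groups overlapped. The log2 fold change was 0.29 (SE 0.10, 95% interval 0.07 to 0.51, edgeR adjusted p = 0.583), or 22.3% higher. Leaving out the lens-rich libraries gave 0.226, and the title number term 0.12. With 406 to 657 counts per library, Lhx9 varied by 14.1% between vehicle libraries where counting alone gives 4.63%.

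**Figure D2:**
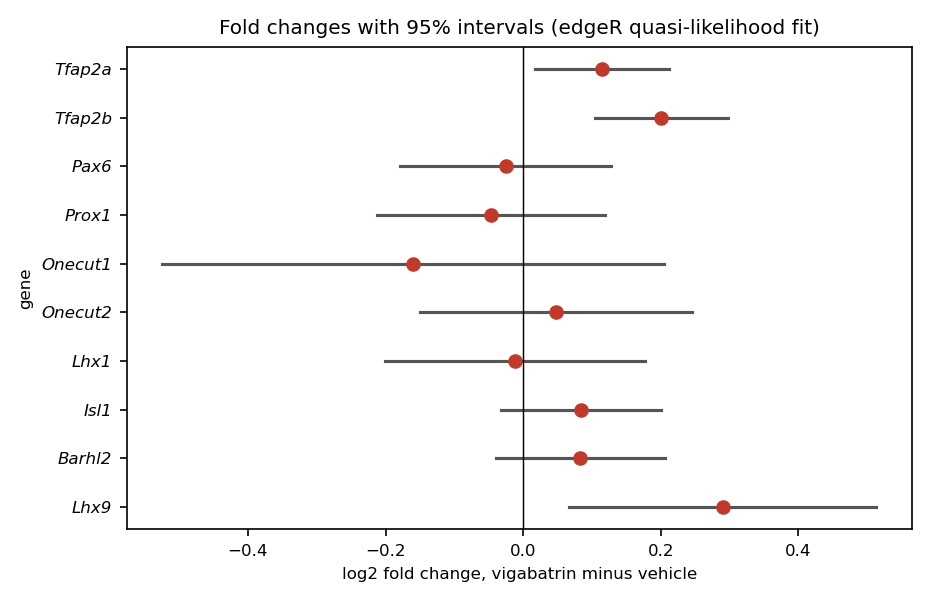
Log2 fold change of each gene (vigabatrin minus vehicle, point) with its 95% interval (line) from the edgeR fit on 10 libraries. The intervals of Tfap2a, Tfap2b and Lhx9 lie above 0 before adjustment, and the widest is that of Onecut1, from -0.52 to 0.21.

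The other LIM-homeodomain genes were closer to equal between the groups. Lhx1 (chr11:84518284-84525535, minus strand), needed for horizontal cells to settle in their layer, ranged from 9.44 to 10.9 CPM in vehicle and from 9.08 to 11.5 CPM after vigabatrin. The groups overlapped throughout, with a log2 fold change of -0.01 (95% interval -0.20 to 0.18). That direction turned under 7 of 20 alternatives, to 0.0893 at most. Isl1 (chr13:116298281-116309689, minus strand), a factor of starburst amacrine, ON bipolar and ganglion cells, ranged from 89.6 to 104 CPM in vehicle and from 94.4 to 107 CPM after vigabatrin. Its log2 fold change was 0.08 (95% interval -0.03 to 0.20), against 0.16 with the title number term. The highest Isl1 values were those of vigabatrin 2347 and 2428, followed by vehicle 1580, all of them libraries poor in lens.

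Pax6 (chr2:105668900-105697364, plus strand), the paired-box factor kept in adult amacrine and ganglion cells, differed between the groups in its spread more than in its mean. Vehicle libraries measured 371, 448, 366, 422 and 335 CPM in the order 832, 835, 1580, 1582 and 2345. Vigabatrin libraries measured 387, 385, 376, 378 and 383 CPM. Every vigabatrin value lay inside the vehicle range, whose ends were the lens-rich 835 and the library 2345. Within vehicle the 2 lens-rich libraries, 835 and 1582, were the highest, and the other 3 measured 335 to 371 CPM. The coefficient of variation was 11.8% in vehicle and 1.22% after vigabatrin, where counting alone gives 0.752% and 0.744%; the difference in spread, and the part of lens content in it, was not tested. The log2 fold change was -0.03 (95% interval -0.18 to 0.13), and the sign turned to 0.0869 without the lens-rich libraries and to 0.189 with the title number term.

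Prox1 (chr1:190118035-190170714, minus strand), a homeobox factor of horizontal and AII amacrine cells and of lens fibres, measured 201, 237, 176, 214 and 201 CPM in vehicle, in the same order of libraries. After vigabatrin it measured 209.5, 177, 205, 196 and 208.6 CPM. The 4 lens-rich libraries (208.6 to 237.2 CPM) were all above the other 6 (175.8 to 205.2 CPM), whatever their treatment. The group means were 206 ± 22.3 and 199 ± 13.5 CPM (SD, n = 5 each). The log2 fold change of -0.05 (95% interval -0.21 to 0.12) became 0.000199 when the lens-rich libraries were left out, and 0.00958 when only vehicle 835 was.

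**Figure D3:**
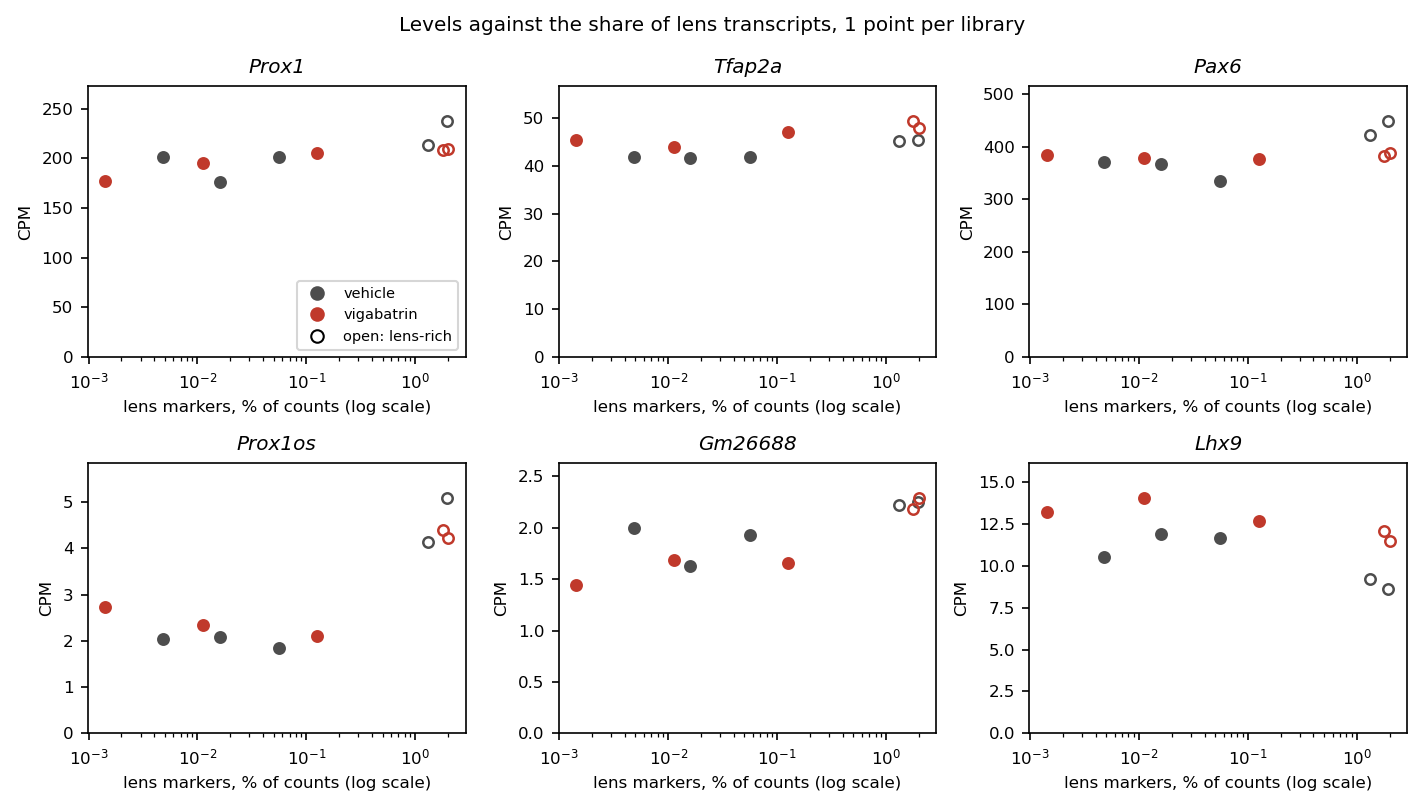
CPM of 4 of the factors and of the opposite-strand genes Prox1os and Gm26688 (y axes) against the percent of counts in lens markers (x axes, log scale), 1 point per library, with lens-rich libraries open. Prox1, Prox1os and Gm26688 are higher in all 4 lens-rich libraries than in the other 6, and Lhx9 is lower there within each treatment.

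The opposite-strand genes at these loci were read from the same table. Prox1os, which overlaps the 5′ end of Prox1 by 419 bases, measured 4.13 to 5.09 CPM in the 4 lens-rich libraries and 1.85 to 2.74 CPM in the other 6. Gm26688, which overlaps Tfap2a by 6016 bases, measured 2.18 to 2.29 CPM and 1.445 to 1.997 CPM in the same 2 sets. The lens share thus moved with the antisense gene as with Tfap2a and Prox1. Pax6os1, opposite the start of Pax6, had means of 4.35 ± 0.286 CPM (vehicle) and 5.18 ± 0.706 CPM (vigabatrin; SD, n = 5 each), a log2 fold change of 0.25 with an edgeR adjusted p of 0.653. The 2 other tested genes that overlap Prox1 measured at most 2.54 CPM and were not called. With no strand setting stated for the counting, it is not known whether reads from the stretches shared by overlapping genes were told apart.

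Onecut1 and Onecut2, cut-homeodomain factors tied to the horizontal cell, were the scarcest of the 10. Onecut1 (chr9:74861921-74891781, plus strand) measured 4.205, 3.41, 3.585, 2.97 and 4.06 CPM in vehicle and 2.83, 2.19, 3.52, 3.74 and 4.01 CPM after vigabatrin, in the same order of libraries. The lowest value was that of vigabatrin 2347, and the groups overlapped. Its log2 fold change was -0.16 (SE 0.17, 95% interval -0.52 to 0.21, edgeR adjusted p = 0.885). Without vigabatrin 2347 it was -0.0482, without the lens-rich libraries -0.319 and with the title number term -0.314. A gene model on the same strand, Gm20649, overlaps Onecut1 by 29556 bases and had 0 counts in every library; how reads shared by both models were counted is not stated in the labels, and this bears on the level of Onecut1. Onecut1 had 88 to 219 counts per library, and its spread of 22.7% after vigabatrin compares with 7.97% from counting. Onecut2 ranged from 5.15 to 6.47 CPM in vehicle and from 5.18 to 6.40 CPM after vigabatrin (log2 fold change 0.05, 95% interval -0.15 to 0.25). Its sign also turned without the lens-rich libraries, to -0.0508. The third gene of the family, Onecut3, had a log2 fold change of 0.17 (95% interval from -0.11) and was not called.

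Barhl2 (chr5:106452523-106458166, minus strand), a homeodomain factor of amacrine and ganglion cell subtypes, ranged from 18.0 to 20.2 CPM in vehicle and from 18.4 to 21.5 CPM after vigabatrin. The log2 fold change was 0.08 (95% interval -0.04 to 0.21). Leaving out the lens-rich libraries gave 0.0419, and the title number term 0.0169. The lowest vigabatrin library was 2428, without which it was 0.119.

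Ratios between related factors, which do not depend on how libraries are scaled, were tested by permuting treatment over all 252 assignments of the 10 libraries (exact, two-sided), with adjustment over 3 ratios. The log2 ratio of Lhx1 to Lhx9 was -0.03 ± 0.237 (vehicle) and -0.34 ± 0.182 (vigabatrin; SD, n = 5 each; exact p = 0.0714, adjusted p = 0.155). That of Onecut1 to Onecut2 was -0.68 ± 0.124 and -0.91 ± 0.240 (exact p = 0.103, adjusted p = 0.155). That of Tfap2a to Tfap2b was -2.41 ± 0.147 and -2.50 ± 0.0820 (exact p = 0.286, adjusted p = 0.286). No ratio passed, although the smallest p this design allows is 0.00794, and in each of the 3 the groups overlapped.

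**Figure D4:**
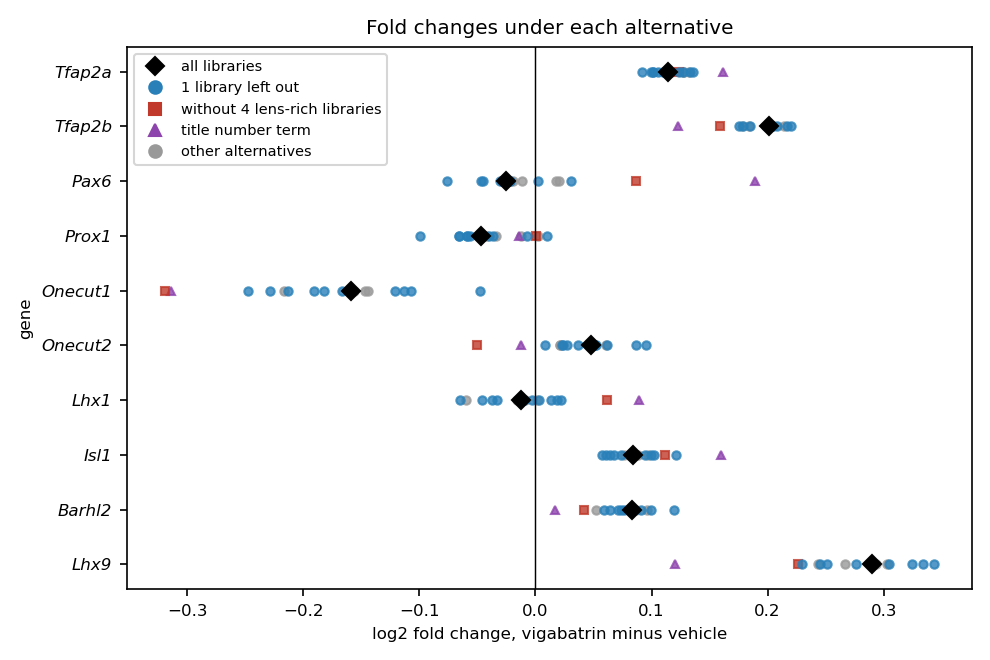
Log2 fold change of each gene (x axis) under 20 alternative settings, with the value from all libraries as a black diamond. Tfap2a, Tfap2b, Isl1, Barhl2 and Lhx9 stay above 0 and Onecut1 below it in every setting, while Pax6, Prox1, Onecut2 and Lhx1 fall on both sides.

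The highest and lowest values were spread over the libraries. Within vehicle, 835 was the highest for Tfap2a, Pax6 and Prox1 and the lowest for Tfap2b, Onecut2, Barhl2 and Lhx9, and 832 was the lowest for none. Within vigabatrin, 2347 was the highest for Lhx1, Isl1 and Barhl2 and the lowest for Prox1, Onecut1 and Onecut2.

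A wider list of 37 transcription factors of inner retinal neurons and their precursors gives the setting. It, too, was chosen with earlier results of these data known. Of the 34 tested, 0 were called over all genes by edgeR and 4 had an unadjusted p under 0.05, all 4 with higher means, beside 3.68% of all tested genes higher at that level. The list had 27 higher and 7 lower means and a median log2 fold change of 0.08, where 49.4% of all tested genes were higher. Without the lens-rich libraries the counts were 28 and 6, and with the title number term 24 and 10. Nfia, a nuclear factor I gene of amacrine cells and Müller glia, measured 38.3 ± 1.47 and 43.6 ± 1.80 CPM (SD, n = 5 each, log2 fold change 0.18, edgeR adjusted p = 0.365). It was the 1 gene of this list whose groups did not overlap, beside 0.849% of all tested genes in that direction. Eomes, a T-box factor of ganglion cells, had a log2 fold change of 0.19, Satb1 0.12 and Bhlhe22, a factor of amacrine and bipolar cells, 0.28. The largest negative values were those of Neurod6, at -0.41, and Fezf1, at -0.31, both near 1 CPM. Ptf1a and Foxn4, which commit embryonic progenitors to amacrine and horizontal fates, had at most 3 and 6 counts in any library and were not tested, nor was Barhl1.

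**Figure D5:**
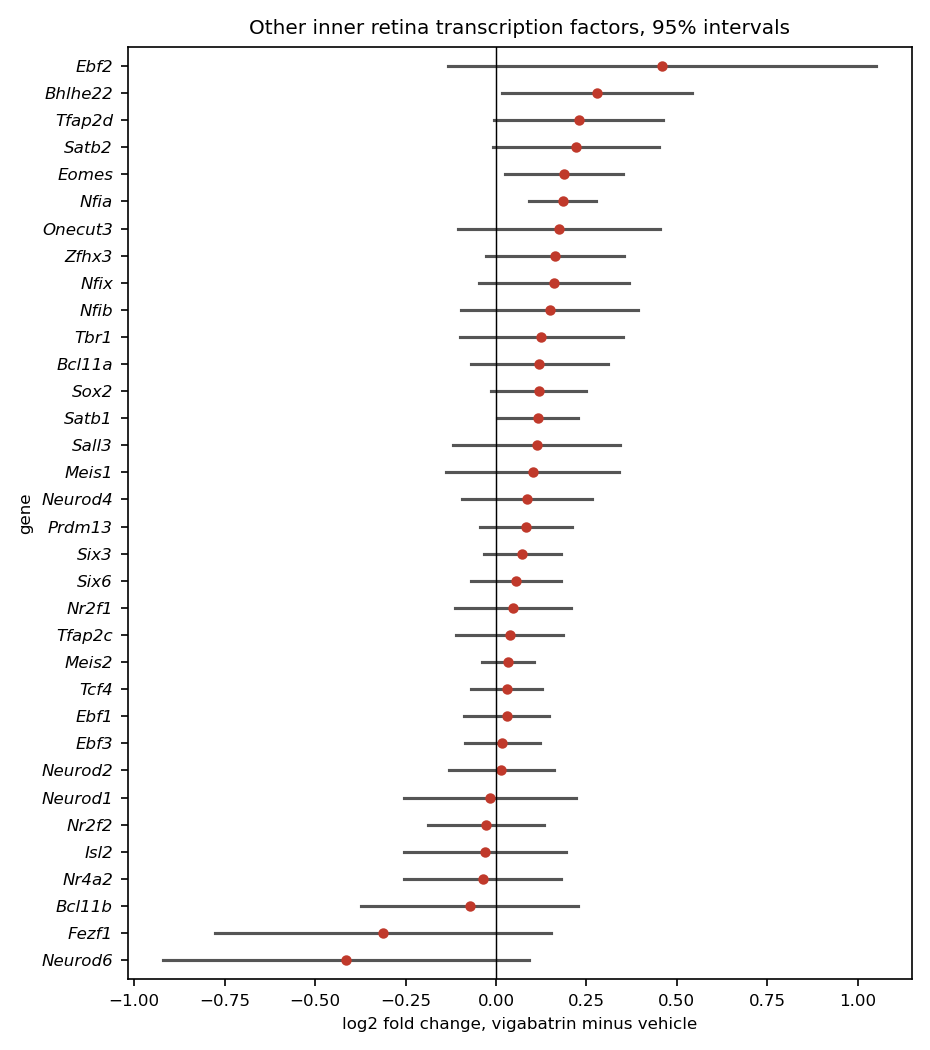
Log2 fold changes (x axis, vigabatrin minus vehicle) with 95% intervals for the 34 tested factors of the wider list, in order of their value. Of these, 27 points lie above 0 and 7 below, and most intervals cross 0.

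Markers of the mature cells were read beside the factors. Of 9 horizontal cell markers 5 had higher and 4 lower means (median log2 fold change 0.015), and of 22 amacrine markers 13 and 9 (median 0.03), with 0 called in either list. At an unadjusted p under 0.05, 2 horizontal cell markers were higher, and 6 amacrine markers were higher and 3 lower, that is 2 of 9 and 9 of 22, beside 7.36% of all tested genes. The horizontal cell list summed to 940 to 1034 CPM in vehicle and 955 to 1063 CPM after vigabatrin, and the amacrine list to 1718 to 1822 and 1725 to 1915 CPM. Both sums overlapped between groups. In both, the 4 lens-rich libraries were all below the other 6, whatever their treatment. The horizontal cell sum was 940 to 978 CPM in the lens-rich libraries and 990 to 1063 CPM in the others. The amacrine sum was 1718 to 1750 CPM and 1804 to 1915 CPM in the same sets. The part of lens content in these sums was not tested. Among horizontal cell markers, Megf10, a receptor for the mosaic spacing of horizontal and starburst cells, had a log2 fold change of 0.23. Among amacrine markers, C1ql1 and C1ql2, secreted C1q-like proteins, had 0.25 each, Chat, the enzyme of starburst cells, 0.19, and the neuropeptide gene Sst -0.94. None of these was called (edgeR adjusted p of 0.269 or more). Megf10 and C1ql1, 1 gene of each list, had groups that did not overlap, as 0.849% of tested genes did in that direction.

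The other retinal cell types were read in the same way. The median log2 fold change was 0.04 for 13 ganglion cell markers, 0.00 for 16 bipolar markers, 0.02 for 12 Müller glia markers and -0.07 for 12 rod markers, with 0 called in each list. At an unadjusted edgeR p under 0.05, 4 Müller glia markers were higher and 2 lower, beside 7.36% of all tested genes. Among bipolar markers 1 was higher and 1 lower at that level, 2 rod markers were lower, and 0 ganglion cell markers differed. Of the rod markers 10 of 12 had lower means, and the arrestin gene Sag had -0.21. Within Müller glia markers, Sox9, a factor of these cells, had 0.41 and Glul, glutamine synthetase, -0.14. Sag and Sox9 had groups that did not overlap, as did 258 of 17435 tested genes in either direction. The differences between these lists were not tested.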

How the data were processed

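Read counts per Ensembl gene were deposited for 10 retinal libraries. Per the submitters' processing notes they were made with HTSeq 0.6.1 on mm10, with DESeq2 and edgeR 3.16.5 also listed. Aligner, annotation release and strand setting: not given in the sources used here. The gene lengths, in bases, are those deposited with the counts. Another 1 count column of that table could be tied to no sample and was left out. Groups follow the titles and the treatment label.

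In R 4.3.3, edgeR 4.0.16 was used for the filter (filterByExpr), the TMM scaling and the quasi-likelihood test of vigabatrin against vehicle on the counts. No covariate entered, and p-values were adjusted by Benjamini-Hochberg over 17435 genes. CPM use TMM library sizes, RPKM divide them by the deposited length, standard errors were derived from the fold change and its F statistic, and intervals use the t distribution of the fit. The median standard error was 0.088 on the log2 scale. The test was checked on simulated data. Replicate pairs differed by a chi-square per degree of freedom of 8.46 or more, so no library was counted as a repeat.

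The 10 factors and all lists were chosen with earlier results of these data known. The rule for named genes took all 10 factors and up to 4 genes of smallest p per list with a mean CPM of at least 1, and summed CPM for lens, cornea and pigment epithelium. The values of 1 gene so chosen are not reported here. Tfap2c, Tfap2d, Onecut3, Neurod6, Fezf1 and the overlapping genes were named after their values were seen. The gene for septin 4 carries a spreadsheet date in the table and was found by its description. Promoter windows come from RefSeq, in which 9 of the 10 genes were matched. Alternatives were DESeq2 1.42.0, limma-voom (limma 3.58.1), other scalings and filters, tissue levels or the title number (above 2000 or not) as terms, and libraries left out.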

Additional observations from a re-analysis of the deposited data

How the results depend on the processing

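The 10 factors gave 0 calls in every setting but DESeq2's Wald test, which called 1 (Tfap2b, adjusted p = 0.00655). Over all genes the count called was 1, against 87 with DESeq2, 3 with limma-voom and 0 with no filter, with lens level, pigment epithelium level or title number as a term, and without the 4 lens-rich libraries. It was between 0 and 39 when 1 library was left out, with 39 without vehicle 2345. The number of genes at an unadjusted p under 0.05 was 1284, against 1976 without vehicle 2345, 1972 with limma-voom and 343 with the title number term, where 0 of the 10 factors reached that level in place of 3.

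Tfap2a, Tfap2b, Isl1, Barhl2 and Lhx9 kept higher means and Onecut1 lower ones in all 20 alternatives, and the 3 ratios their direction in all 12. The other 4 genes did not. Pax6 measured 0.0207 with limma-voom, 0.0174 with pigment epithelium level, 0.189 with title number and 0.0869 without the lens-rich libraries, and -0.0759 to 0.0309 with 1 library left out. Prox1 measured 0.00226 with limma-voom, 0.000199 without the lens-rich libraries and -0.0996 to 0.00958 with 1 left out. Onecut2 measured -0.0121 with title number and -0.0508 without the lens-rich libraries. Lhx1 measured 0.00125 with upper quartile scaling, 0.0893 with title number, 0.0616 without the lens-rich libraries and -0.0648 to 0.0221 with 1 left out. The cause was not tested. Onecut1, Onecut2, Lhx1 and Lhx9 had the fewest counts, 88 to 657 per library. In both groups the spread of each of these genes between libraries exceeded counting error. For Onecut2 it was 8.86% in vehicle and 8.09% after vigabatrin, against 6.17% and 5.92% from counting. For Lhx1 it was 6.27% and 11%, against 4.66% and 4.59%.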
